A study of Mus musculus with 6 samples.

Results

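Splicing, the removal of introns from pre-mRNA, is carried out by the spliceosome and steered by RNA-binding proteins. The genes described here were the 65 of 24421 gene entries whose symbols begin with Srsf, Hnrnp, Snrp, Sf3a, Sf3b or Prpf. They comprised 11 Srsf genes, 20 Hnrnp genes, 12 Snrp genes, 9 Sf3 genes and 13 Prpf genes, with membership decided by symbol alone. RNA came from monocytes, phagocytes made in the bone marrow, which were sorted from the marrow of B6 mice. Poly(A) RNA was sequenced from 3 libraries of cells given 5 ng of the cytokine GM-CSF for 3 h (no volume is stated) and from 3 control libraries. No genetic change, age or cell line is named for either group. The control cells are called freshly isolated in one label, yet the protocol speaks of culture medium for 3 h in both arms, so GM-CSF and time in culture cannot be told apart. No label ties a replicate to its own mouse or culture, and the p-values below therefore reflect scatter among 6 libraries that could be technical scatter.

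The 5 families act at different places in the same machine. Srsf genes encode the SR proteins, which bind exons through RNA recognition motifs and recruit the splicing machinery through domains rich in arginine and serine. Hnrnp genes encode heterogeneous nuclear ribonucleoproteins, which coat nascent transcripts and often oppose SR proteins at splice sites. Snrp genes encode the core of the small nuclear ribonucleoproteins (snRNPs): the Sm ring that encircles the U1, U2, U4 and U5 RNAs, and proteins particular to U1 or U2. Sf3a and Sf3b genes encode the SF3 complex, which fixes the U2 snRNP to the branch site, and Prpf genes encode pre-mRNA processing factors, many of them in the U4/U6 and U5 particles. In myeloid cells, activation is known to bring changes both in transcription and in alternative splicing.

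The libraries held 16643228 to 25232956 reads assigned to genes, and levels are given as CPM, the share of these reads scaled as in the usual counts-per-million unit. Of 16 monocyte markers, all 16 were detected, and their sum ran from 67113 to 76540 CPM in the controls and from 31725 to 34809 CPM with GM-CSF. Of 15 neutrophil granule markers, 14 were listed and none was at 0; their sum was 28923 to 39827 CPM in the controls against 16628 to 20794 CPM with GM-CSF. The summed markers of B cells were 67.0 to 76.8 CPM in the controls against 35.5 to 45.1 CPM with GM-CSF. Those of T and NK cells were 170.7 to 235 CPM over all 6 libraries. Those of erythroid cells and platelets were 26.1 CPM in control replicate 3 and 2.42 to 3.8 CPM in the other 5 libraries, with Hba-a1, Hba-a2, Hbb-bs and Hbb-bt at 0. Those of dendritic cells, basophils and eosinophils were 102 to 104 CPM in the controls against 52.8 to 65.7 CPM with GM-CSF, with Epx at 0. In bulk RNA it cannot be told whether these reads came from other cells or from the monocytes themselves. The part of other cells in the results below was not tested. GM-CSF replicate 3 had the fewest detected genes, 13378, against 14003 to 14253 in the other libraries. Across genes, which are not independent replicates, Pearson's r of log2 CPM was 0.977 and 0.980 between it and GM-CSF replicates 1 and 2, and 0.989 between those.

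Most SR protein genes and many other splicing genes were higher with GM-CSF, by modest factors. Of the 65 genes, 63 passed the filter on low counts, and 38 of these were higher and 2 lower at an adjusted p under 0.05 (edgeR quasi-likelihood test, Benjamini-Hochberg over 11731 genes; n = 3 per group). The other 23 did not pass that threshold. The share called, 63.5%, lay next to the 64.0% called among all tested genes. The direction was uneven, since 32.8% of all tested genes were called higher and 31.2% lower. The median log2 fold change over the 63 genes was 0.38, beside 0.01 over all tested genes. With upper quartile scaling, which lowered the median of all genes by 0.117 on the log2 scale, 33 were higher and 5 lower and their median was 0.26. Of the 63 genes, 21 were called and at least 1.5-fold higher (21.4% of all tested genes) and 1 was called and at least 1.5-fold lower (21.7% of all tested genes). Prpf31 and Hnrnpll were the 2 of 63 that reached a 2-fold rise, beside 11.9% of all tested genes, and 0 of 63 reached a 2-fold fall, beside 12.6%. In 43 of the 63 no GM-CSF library overlapped a control library, 39 of them higher and 4 lower, a total share of 68.3% beside 69.5% of all tested genes (34.9% higher and 34.7% lower). In bulk RNA, fewer cells of a type and less RNA per cell cannot be told apart, so a level here is an average over all sorted cells.

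**Figure D1:**
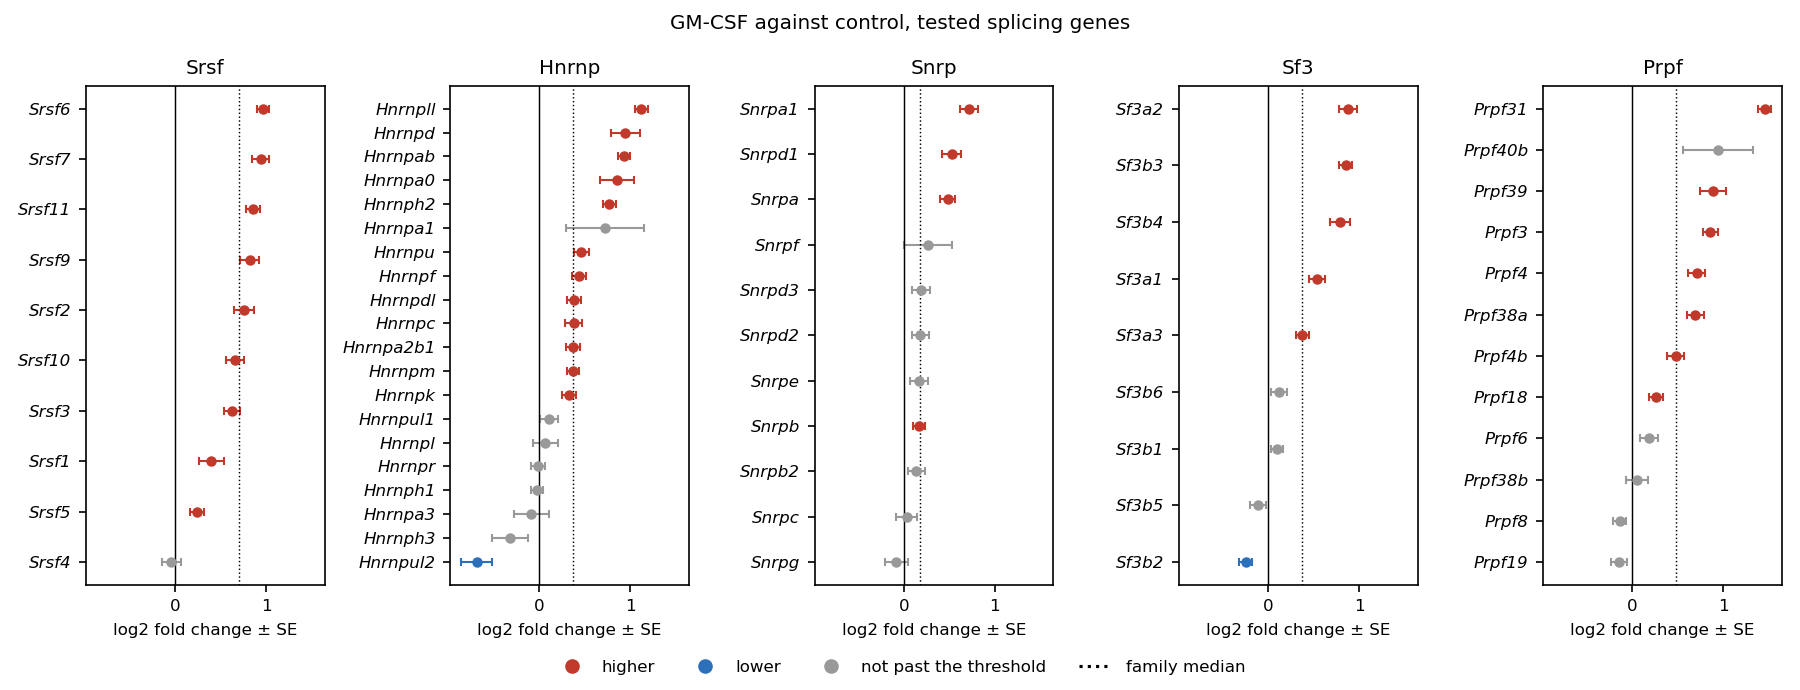
Log2 fold change (GM-CSF against control, horizontal axis) of tested splicing genes, grouped by family, with bars of 1 SE; red points are called higher, blue points lower and grey points neither at an adjusted p under 0.05, and dotted lines mark the medians over all tested genes of a family. Most points lie right of 0, Prpf31 lies farthest right at 1.45, and Hnrnpul2 lies farthest left at -0.69.

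Summed over all 65 genes, the level was 10264 ± 183 CPM in the controls against 14019 ± 306 CPM with GM-CSF (SD, n = 3 per group). The sum was thus 1.37-fold larger with GM-CSF. The Srsf sum moved most, from 1840 ± 57.7 to 2951 ± 60.5 CPM, a ratio of 1.60. The Hnrnp sum, the largest share of the total, went from 5070 ± 94.0 to 6957 ± 216 CPM and the Prpf sum from 879.6 ± 4.36 to 1195 ± 47.3 CPM, ratios of 1.37 and 1.36. By sum, the Snrp and Sf3 families moved less, although the median log2 fold change of Sf3 genes (0.38) lay next to that of Hnrnp genes (0.38). The Snrp sum went from 1050 ± 59.5 to 1234 ± 37.5 CPM and the Sf3 sum from 1426 ± 40.6 to 1681 ± 7.43 CPM, ratios of 1.18 for each. In each of the 5 families the lowest GM-CSF sum was above the highest control sum.

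**Figure D2:**
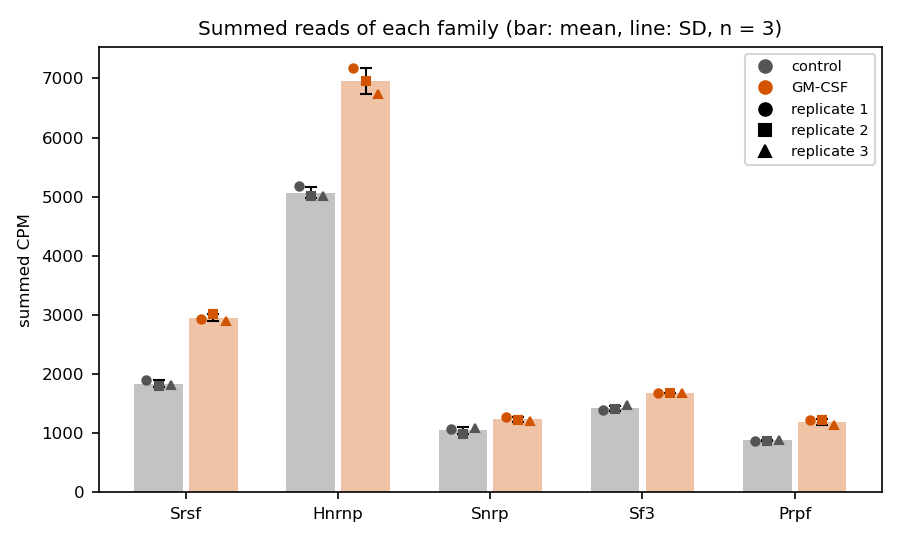
Summed CPM of each family in every library (vertical axis from 0, points are libraries, bars are group means, lines are 1 SD). The GM-CSF points lie above the control points in all 5 families, and the Srsf family has the largest ratio of means, 1.60.

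Among the SR proteins, 9 of 10 tested genes rose and none fell, with a median log2 fold change of 0.71. All tested genes were called in 64.0% of cases, 32.8% higher and 31.2% lower. The same shares stand beside the counts by family and particle below. The groups did not overlap in 8 of the 10 genes (80%), beside 69.5% of all tested genes. Srsf6 (chr2:162931528-162937121, GRCm38, plus strand), whose protein binds exonic enhancers, was at 316, 306 and 293 CPM in GM-CSF replicates 1 to 3 and at 156, 156 and 159 CPM in the control replicates. The groups were far apart, and the control libraries were almost level. Its log2 fold change was 0.97 ± 0.07 (SE; edgeR adjusted p = 3.81e-07), a rise of 1.95-fold. Srsf7 (chr17:80200080-80207307, minus strand), an SR protein with a zinc knuckle that shuttles to the cytoplasm, was at 487, 458 and 424 CPM against 262, 215 and 240.1 CPM. Every GM-CSF library exceeded every control library, with a log2 fold change of 0.94 ± 0.09 (edgeR adjusted p = 5.71e-06). Srsf11 (chr3:158010473-158036639, minus strand) was at 189, 171 and 168 CPM against 99.6, 92.5 and 101 CPM. It too separated the groups, at 0.86 ± 0.08 (edgeR adjusted p = 3.64e-06).

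Srsf2 (chr11:116849901-116853094, minus strand), a nuclear SR protein that activates exons, had the highest level per kilobase of exon in its family, 117 CPM per kb in the controls against 197 CPM per kb with GM-CSF. Its libraries with GM-CSF were at 465, 617 and 666 CPM and its control libraries at 348, 347 and 342 CPM. GM-CSF replicate 1 was the low one, 0.725 times the mean of the other GM-CSF libraries, yet above every control. The log2 fold change was 0.76 ± 0.11 (edgeR adjusted p = 0.000127). Srsf9, at 0.82, Srsf10, whose protein represses splicing when dephosphorylated, at 0.66, and Srsf3, the smallest SR protein, at 0.63, rose as well without overlap between groups.

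Srsf1, the SR protein first purified as a splicing activity, was at 298, 294 and 197 CPM with GM-CSF and at 218, 182 and 199 CPM in control libraries. The groups overlapped because GM-CSF replicate 3 lay within the control range. Its log2 fold change of 0.40 ± 0.14 (edgeR adjusted p = 0.0275) lost its call in 7 of 17 alternative settings. Srsf5, at 0.24 ± 0.08 (edgeR adjusted p = 0.0179), lost its call in 4 of them. Srsf4 was level, at 23.6 to 23.9 CPM with GM-CSF and 22.5 to 26.0 CPM in control libraries (-0.04 ± 0.10, edgeR adjusted p = 0.746). Srsf12 had 0 reads in every library, which allows up to 0.119 to 0.180 CPM if 3 reads are taken as the limit of a count of 0. That limit covers counting error only.

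**Figure D3:**
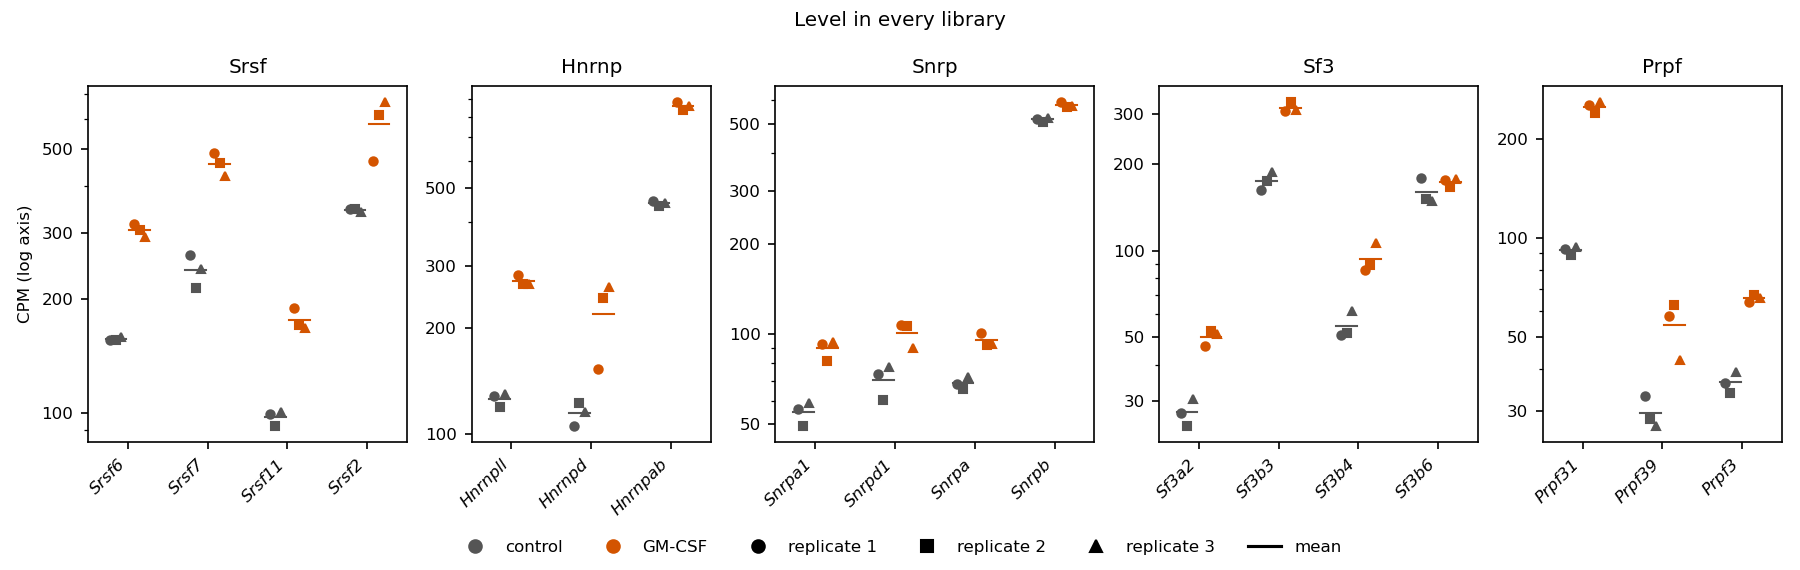
CPM in every library (log axis) for 3 or 4 genes of each family, with control points in grey, GM-CSF points in orange and horizontal lines at the group means. Prpf31 runs from 88.9 to 94.3 CPM in control and from 240.2 to 258 CPM with GM-CSF, while the 2 groups overlap for Sf3b6.

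Of 20 hnRNP genes, 12 rose, 1 fell and 7 did not pass, with a median log2 fold change of 0.38. The share called, 65%, lay next to the 64.0% of all tested genes. Hnrnpll (chr17:80029487-80062334, minus strand), known for repressing the variable exons of CD45 in lymphocytes, was at 283, 268 and 267 CPM with GM-CSF and at 128, 119 and 130.0 CPM in control libraries. The groups did not overlap and the GM-CSF libraries were about level. Its log2 fold change was 1.12 ± 0.07 (edgeR adjusted p = 1.99e-07). Hnrnpab (chr11:51600100-51606847, minus strand), a binder of single-stranded nucleic acids, was at 881, 838 and 861 CPM against 459.9, 445 and 455 CPM. It had the highest mean level per kilobase of the family over all 6 libraries, and rose by 0.93 ± 0.07 on the log2 scale (edgeR adjusted p = 5.94e-07). Hnrnpd (chr5:99955935-99978938, minus strand), also called AUF1, which binds AU-rich elements of unstable mRNAs, was at 153, 243 and 262 CPM against 105, 122 and 116 CPM. GM-CSF replicate 1 was the low one at 0.606 times the mean of the other GM-CSF libraries, and the groups still did not overlap (0.94 ± 0.16, edgeR adjusted p = 0.000351).

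Smaller rises were found across the abundant hnRNPs. Hnrnpu, a scaffold protein that binds chromatin and RNA, went from 743 ± 19.0 to 1019 ± 81.2 CPM, a log2 fold change of 0.46. Hnrnpa2b1, the hnRNP with the most reads, went from 971 ± 28.6 to 1252 ± 65.7 CPM, at 0.37. Hnrnpf, a reader of G-rich RNA, Hnrnpc, a binder of uridine tracts, and Hnrnpk, a binder of C-rich RNA, rose by 0.43, 0.38 and 0.32. Hnrnpm rose by 0.37 and Hnrnpdl by 0.38. Hnrnph2 rose by 0.77 and the low-level gene Hnrnpa0, at 9.79 ± 1.43 CPM in control, by 0.85. In none of these 9 genes did the groups overlap. Over the family there was no overlap in 14 of 20 genes (70%), beside 69.5% of all tested genes.

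Hnrnpul2 (chr19:8820010-8834143, plus strand), a relative of Hnrnpu, was the hnRNP gene that fell. It was at 20.9, 20.5 and 12.7 CPM with GM-CSF and at 30.1, 28.6 and 28.7 CPM in control libraries. All GM-CSF libraries were below all controls, with GM-CSF replicate 3 lowest, at 0.614 times the mean of the other GM-CSF libraries. The log2 fold change was -0.69 ± 0.17 (edgeR adjusted p = 0.00434), and the call held in all 17 alternative settings.

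The 7 hnRNP genes that did not pass included Hnrnpl, Hnrnph1 and Hnrnpa1. Hnrnpl was at 285 and 283 CPM in GM-CSF replicates 1 and 2, above the control libraries at 234, 237 and 255 CPM, and at 188 CPM in replicate 3, below them. Its log2 fold change was 0.07 ± 0.13 (edgeR adjusted p = 0.683). Without GM-CSF replicate 3 it was 0.25 (edgeR adjusted p = 0.0119). Hnrnph1, the closest relative of Hnrnph2, was at 141 to 142 CPM with GM-CSF and 139.9 to 147 CPM in control libraries, at -0.02 ± 0.07. Hnrnpul1 was at 0.11 ± 0.10, Hnrnpr at -0.01 ± 0.08 and Hnrnpa3 at -0.09 ± 0.19. Hnrnph3, at 3.34 to 3.91 CPM against 4.0 to 4.96 CPM, had -0.32 ± 0.20 (edgeR adjusted p = 0.185) although its groups did not overlap.

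Hnrnpa1, a well-studied repressor of exon inclusion that is usually an abundant hnRNP, had the lowest level of the family. It had 39, 27 and 27 reads in GM-CSF replicates 1 to 3 and 17, 19 and 36 reads in the control replicates. The groups overlapped through control replicate 3, and the log2 fold change was 0.72 ± 0.43 (edgeR adjusted p = 0.163). Without control replicate 3 it was 1.23 (edgeR adjusted p = 0.0423). Per kilobase, Hnrnpa1 stood at 0.338 CPM in control libraries and Hnrnpa2b1 at 148 CPM. Of all 100-base stretches of the main Hnrnpa1 transcript in GENCODE M21, 42.2% also occurred unchanged in transcripts of 10 other genes, each annotated as a pseudogene. A read lying wholly within such a stretch has no unique place.

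Levels of such genes are therefore uncertain wherever reads without a unique place were not counted. Reads recorded as not unique made up 18% to 19.6% of each library. Shared sequence and low counts did not go together throughout. Hnrnpa3, at 27.5% of stretches shared with 24 other genes, stood at 2.09 CPM per kb in control libraries, whereas Hnrnpf, at 43.5% shared with 6 other genes, stood at 200.1 CPM per kb, the highest control level of the family. Hnrnph3 shared none and stood at 1.45 CPM per kb. At least 10% of the stretches were shared in 12 of the 65 genes. Among them were Srsf3 (20.7%), Srsf5 (17.9%), Sf3b4 (36.9%), Hnrnpk (25.3%) and Snrpf (16.1%). Hnrnpm (27.9%) and Snrpn (16.1%) also counted among them, but shared with no annotated pseudogene. On the same strand, 1169 exon bases of Hnrnpm overlap exons of March2, and 805 of Snrpn overlap those of other genes. There a shared stretch can be the same place under different gene names. The part of shared sequence in the levels was not tested.

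The Sm ring moved little. Of its 7 genes, Snrpd1 and Snrpb rose, none fell, and the median log2 fold change was 0.18. Over the 11 tested Snrp genes, 4 rose and none fell, a share called of 36.4% beside 64.0% of all tested genes. Snrpd1, one of the ring's D subunits, was at 107, 106 and 89.7 CPM with GM-CSF and at 73.6, 60.4 and 77.6 CPM in control libraries. The groups did not overlap (0.53 ± 0.11, edgeR adjusted p = 0.00137). Snrpb (chr2:130171414-130179403, minus strand), whose B protein belongs to the ring, had the highest level per kilobase of all 65 genes in control libraries, 263 CPM per kb. It was at 592, 569 and 575 CPM against 522, 509.7 and 525 CPM, without overlap. Its log2 fold change was 0.17 ± 0.07 (edgeR adjusted p = 0.0463), and this small rise lost its call in 12 of 17 alternative settings, among them each of the 6 that left out a library, at 0.14 to 0.19.

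The other ring genes did not pass. Snrpf was at 0.27 ± 0.27, Snrpd3 at 0.19 ± 0.10, Snrpd2 at 0.18 ± 0.09, Snrpe at 0.17 ± 0.10 and Snrpg at -0.08 ± 0.13. Snrpf stood at 3.00 CPM per kb in control libraries, and its ring partners at 14.3 CPM per kb or more. Of its 861 exon bases, 567 lie opposite exons of Ccdc38 and 168 opposite exons of 4933408J17Rik. The labels do not state whether counting was done by strand.

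Of the 4 tested Snrp genes whose proteins are particular to 1 particle, Snrpa1 and Snrpa rose. Snrpa1 (chr7:66059003-66074587, plus strand), a protein of the U2 snRNP, was at 92.8, 81.4 and 94.4 CPM with GM-CSF and at 56.2, 49.5 and 58.8 CPM in control libraries. The groups were well apart (0.72 ± 0.10, edgeR adjusted p = 6.42e-05). Snrpa (chr7:27187005-27196271, minus strand), which binds a stem-loop of U1 RNA, was at 101, 92.0 and 93.0 CPM against 67.9, 65.8 and 71.8 CPM. It rose by 0.48 ± 0.08 (edgeR adjusted p = 0.000273). Snrpc, the U1 protein that contacts the 5' splice site, was at 0.03 ± 0.11, and Snrpb2, the partner of Snrpa1 on U2 RNA, at 0.14 ± 0.10; neither passed. Snrpn, the imprinted Sm protein of neurons, had 2 reads, both in GM-CSF replicate 3, and was not tested.

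Of the 9 SF3 genes, 5 rose, Sf3b2 fell and 3 did not pass, and the median log2 fold change was 0.38. The share called was 66.7%, beside 64.0% of all tested genes. With upper quartile scaling 5 rose and 2 fell. Sf3a2 (chr10:80798198-80804924, plus strand), a subunit of the SF3a part, was at 46.4, 52.3 and 51.1 CPM with GM-CSF and at 27.1, 24.5 and 30.3 CPM in control libraries. The groups did not overlap (0.88 ± 0.10, edgeR adjusted p = 2.11e-05). Sf3b3 (chr8:110810239-110846787, minus strand), a scaffold of beta-propellers in SF3b, was at 308, 329 and 308 CPM against 163, 175 and 188 CPM. It rose by 0.85 ± 0.07 (edgeR adjusted p = 1.58e-06). Sf3b4 (chr3:96172332-96177564, plus strand), which contacts RNA upstream of the branch site, was at 85.7, 89.3 and 106 CPM against 50.8, 51.4 and 61.5 CPM. Its rise was 0.79 ± 0.11 (edgeR adjusted p = 5.93e-05). The other subunits of SF3a, Sf3a1 and Sf3a3, rose by 0.54 and 0.38, so that all 3 SF3a genes were higher.

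SF3b genes moved in both directions. Sf3b2, which binds Sf3b4 in the complex, was at 199.5, 209 and 202 CPM with GM-CSF and at 229, 238 and 262 CPM in control libraries. The GM-CSF libraries all lay below the controls (-0.25 ± 0.07, edgeR adjusted p = 0.00872). Sf3b1, the ring-shaped subunit that clamps the branch helix, was at 569, 544 and 525 CPM against 498, 518 and 519 CPM, a log2 fold change of 0.10 ± 0.07 (edgeR adjusted p = 0.212). Sf3b6, which lies at the branch site and had the highest level per kilobase of the family, was at 176, 167 and 178 CPM against 179, 151 and 149 CPM. Its groups overlapped through control replicate 1 (0.12 ± 0.09, edgeR adjusted p = 0.246), and without that library its log2 fold change was 0.22 (edgeR adjusted p = 0.0378). Sf3b5 was at -0.11 ± 0.08. Over all 11 U2 proteins among these genes, that is Snrpa1, Snrpb2 and the 9 SF3 genes, 6 rose and 1 fell.

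Of 13 Prpf genes, 8 rose, none fell and 5 did not pass, with a median log2 fold change of 0.48. The share called was 61.5%, beside 64.0% of all tested genes. With upper quartile scaling 6 rose and 2 fell. Prpf31 (chr7:3629985-3642486, plus strand) had the largest log2 fold change of the 63 tested genes. Its protein binds the U4 snRNP and holds it in the tri-snRNP with U6 and U5. Prpf31 was at 253, 240.2 and 258 CPM with GM-CSF and at 92.6, 88.9 and 94.3 CPM in control libraries. No library came near the other group, and the spread within each group was small. The log2 fold change was 1.45 ± 0.07 (edgeR adjusted p = 2.75e-08), a rise of 2.74-fold. Of its 5439 exon bases, 984 lie opposite exons of Gm15927.

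The U4/U6 partners of Prpf31 rose less. Prpf3 (chr3:95830124-95855885, minus strand), which binds the U4/U6 duplex with Prpf4, was at 64.0, 67.2 and 66.0 CPM with GM-CSF and at 36.4, 34.0 and 39.2 CPM in control libraries. The groups were apart, at 0.86 ± 0.08 (edgeR adjusted p = 6.34e-06). Prpf4 rose by 0.70. The U5 protein Prpf8, the largest protein at the catalytic centre, was at 94.6, 93.8 and 88.2 CPM against 100.4, 105 and 100.3 CPM, at -0.14 ± 0.07 (edgeR adjusted p = 0.116). Prpf6, which bridges U5 to U4/U6, was at 0.18 ± 0.10. Thus 3 of these 5 tri-snRNP genes rose, and the 2 linked to U5, Prpf8 and Prpf6, did not pass. U5 proteins outside the 5 families are not counted here. Of 18 particle proteins outside them, 11 rose, Txnl4a (0.51), Snrnp40 (0.43) and Eftud2 (0.19) among them, and 2 fell.

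Prpf39 (chr12:65036333-65063386, plus strand), a U1-associated protein, was at 57.9, 62.8 and 42.7 CPM with GM-CSF and at 33.2, 28.3 and 27.0 CPM in control libraries. GM-CSF replicate 3 was 0.707 times the mean of the other GM-CSF libraries but above each control (0.89 ± 0.14, edgeR adjusted p = 0.000271). Prpf38a, a factor needed for spliceosome activation, rose by 0.69, and the kinase Prpf4b by 0.48. The second-step factor Prpf18 rose by 0.26, and lost its call with upper quartile scaling (0.14) and with a correction for GC content (0.15). Prpf38b was at 0.05 ± 0.12 and the ubiquitin ligase gene Prpf19 at -0.15 ± 0.09, and neither passed. Prpf40b, at 1.20 ± 0.438 CPM in control and 2.34 ± 0.797 CPM with GM-CSF, had 0.94 ± 0.38 (edgeR adjusted p = 0.05003) and was called in 6 of the 17 alternative settings.

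Close relatives were compared within libraries. The comparison used 13 pairs, which were picked after the fold changes had been seen, so the ratios are a description with no test. A log2 ratio of reads within a library does not depend on the scaling between libraries. Hnrnpll to Hnrnpl stood at -0.87, -0.99 and -0.97 in the control libraries and at -0.01, -0.08 and 0.50 with GM-CSF. So Hnrnpll had fewer reads than Hnrnpl in every control library and about as many or more with GM-CSF. Srsf6 to Srsf4 stood at 2.80, 2.62 and 2.61 in control and at 3.73, 3.68 and 3.63 with GM-CSF, a 2.01-fold change in the ratio. Hnrnpu to Hnrnpul2 differed by 1.18 and Hnrnph2 to Hnrnph1 by 0.79. Prpf38a to Prpf38b differed by 0.64 and went from below 0 in all control libraries to -0.01 to 0.21 with GM-CSF. In 11 of the 13 pairs no GM-CSF library overlapped a control library, beside 69.5% of all tested genes taken singly. No such share was computed for other gene pairs. Srsf9 to Srsf1 and Hnrnpd to Hnrnpdl overlapped.

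**Figure D4:**
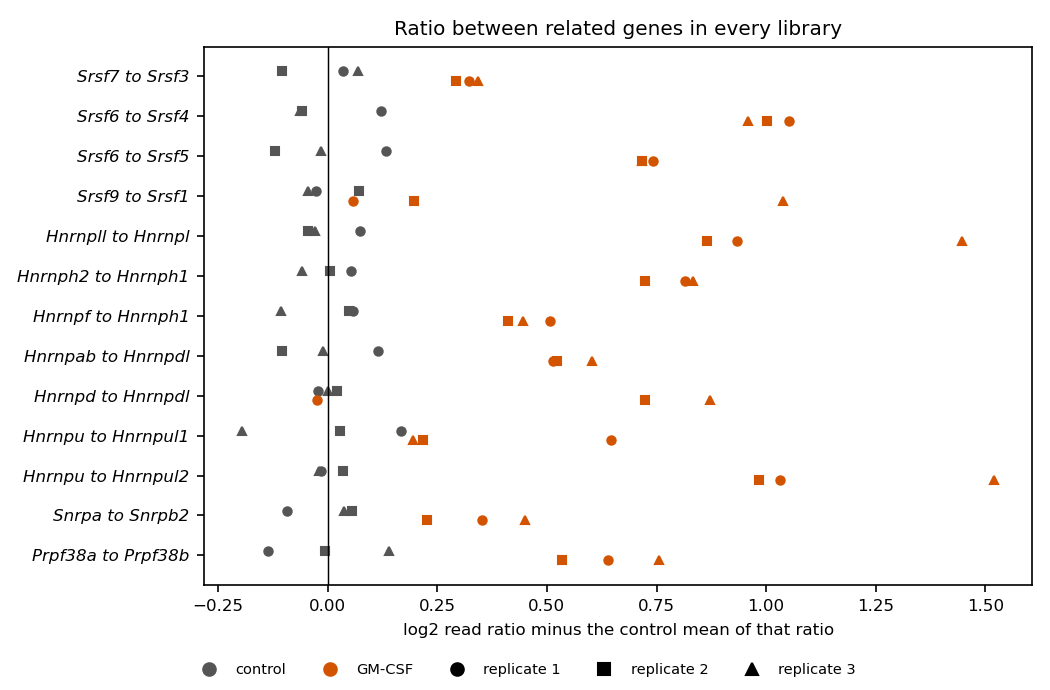
Log2 ratio of reads between 2 related splicing genes in every library, minus the control mean of that ratio (horizontal axis); each row is a pair and each point a library. Hnrnpu to Hnrnpul2 shows the largest mean shift, 1.18, and GM-CSF replicate 3 lies apart from the other GM-CSF libraries for Srsf9 to Srsf1 and Hnrnpll to Hnrnpl.

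GM-CSF replicate 3 stood apart for several genes. In it 8 of the 63 genes were under 0.8 times and 3 were over 1.25 times the mean of the other GM-CSF libraries. The lower ones included Hnrnpul2 (0.614), Hnrnpl (0.662), Srsf1 (0.668), Prpf39 (0.707) and Prpf38b (0.757), and the higher ones were Hnrnpa0 (1.47), Hnrnpd (1.32) and Srsf9 (1.255). By the same limits, each library set against the others of its group, GM-CSF replicate 1 had 2 genes lower and 4 higher, GM-CSF replicate 2 had 1 lower and 0 higher, and control replicates 1, 2 and 3 had 2, 4 and 0 lower and 0, 1 and 2 higher. Without GM-CSF replicate 3, 39 of the splicing genes were called higher and 2 lower, with a median log2 fold change of 0.42.

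SR protein genes are known for alternative exons that carry a premature stop and send the transcript to nonsense-mediated decay, through which these proteins limit their own level. In GENCODE M21 such a transcript was annotated for 31 of the 63 tested genes (49.2%), beside 29.9% of 10878 tested protein-coding genes. It was annotated for 9 of 10 Srsf genes, 10 of 20 Hnrnp genes, 4 of 11 Snrp genes, 1 of 9 Sf3 genes and 7 of 13 Prpf genes. Reads were counted per gene, so a rise in such a gene does not show which of its transcripts rose. The median GC content of their transcripts was 46.2%, and 43.7% for the Srsf genes, beside 50.1% for the tested protein-coding genes. The median number of annotated transcripts was 6.0 over the 63 genes, beside 5.0 for the tested protein-coding genes. By family it was 7.5 for Srsf, 8.0 for Hnrnp, 5.0 for Snrp, 4.0 for Sf3 and 8.0 for Prpf. The part of transcript number in the shares above was not tested.

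Promoters were compared because most of the called genes moved the same way. RefSeq promoters on GRCm38.p6, from 250 bases before to 50 after each start, were found for 57 of the 65 genes. The letters CACGTG, an E-box of the kind bound by MYC and related factors (the same on both strands), stood in the promoters of 9 of the 57 genes (15.8%). They stood in 11.96% of the tested genes with a promoter and in 8.09% of all 27025 genes with one. Among genes of these families that rose, 7 of 32 held it (21.9%), beside 14.0% of all tested genes called higher. It stood in 2 of the other 25 (8.0%), beside 10.95% of tested genes not called higher. The untested genes Srsf12 and Snrpn count among the 25. No Srsf promoter was among them, although that family had the largest median. The letters ACTTCCGG, an ETS element (searched on both strands), stood in 11 of the 57 promoter sets (19.3%), beside 9.66% of tested genes; among rising genes it stood in 7 of 32 (21.9%), beside 11.1% of all tested genes called higher. TTCNNNGAA, the same on both strands and of the kind bound by STAT5, stood in 6 of 57 (10.5%), beside 8.47% of tested genes. Among rising genes it stood in 2 of 32 (6.25%), beside 9.22% of all tested genes called higher. It stood in 4 of the other 25 (16.0%), beside 8.1% of tested genes not called higher. An NRF1 element and a YY1 element, searched on both strands, stood in 1 gene each. A match to TTCNNNGAA can overlap one to the ETS element, no enrichment test was made, and a match is not a site. The E-box stretches of the rising genes Hnrnpd (chr5:99978939-99979000, minus strand), Prpf39 (chr12:65036261-65036326, plus strand) and Snrpa (chr7:27196272-27196333, minus strand), are printed with CACGTG in capitals because each lies close before the start of a gene described above.

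Hnrnpd: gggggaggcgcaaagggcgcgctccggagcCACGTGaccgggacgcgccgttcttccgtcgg

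Prpf39: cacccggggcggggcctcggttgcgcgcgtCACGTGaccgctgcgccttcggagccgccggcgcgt

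Snrpa: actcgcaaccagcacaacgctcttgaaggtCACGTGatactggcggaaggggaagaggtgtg

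The E-box ended 26 bases before the start of Hnrnpd, 37 before that of Prpf39 and 26 before that of Snrpa. Snrpa held another, 67 bases before its start. Hnrnpa3 and Prpf40b, which did not pass the test, held the same letters 12 and 185 bases before theirs. In the other rising genes with a match, Hnrnpf, Hnrnph2, Hnrnpm and Prpf3, it did not lie wholly before the most upstream start.

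Other genes of the splicing pathway were read from lists of 198 genes outside the 5 families, of which 192 were tested. Of these 97 rose and 21 fell, 61.5% called, beside 64.0% of all tested genes (32.8% higher and 31.2% lower). The same shares over all tested genes stand beside the counts by list below. Their median log2 fold change was 0.25, beside 0.01 over all tested genes. With upper quartile scaling 76 of the related genes rose and 31 fell. Gemin4, a factor that builds snRNPs, had the largest rise of the related genes. Of 16 genes listed for snRNP assembly, 8 rose, none fell and 8 did not pass. The list holds genes of the SMN and PRMT5 complexes, which load the Sm ring onto RNA, and others such as Coil and Tgs1. Smn1 was at 0.21 ± 0.10 and did not pass. Gemin4 itself, an SMN complex subunit, went from 11.3 ± 1.46 to 46.9 ± 3.32 CPM (2.07 ± 0.12, edgeR adjusted p = 1.03e-07). Prmt5, the enzyme that methylates Sm proteins, went from 32.5 ± 2.5 to 92.4 ± 1.57 CPM (1.52 ± 0.08, edgeR adjusted p = 7.06e-08). The median log2 fold change over the 16 assembly genes was 0.59, beside 0.18 for the Sm ring genes themselves.

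Kinases that phosphorylate SR proteins were mixed: of 9 tested, 2 rose and 3 fell. Srpk2, which acts on SR proteins in the cytoplasm, fell from 38.4 ± 2.53 to 16.0 ± 3.23 CPM (-1.25 ± 0.14, edgeR adjusted p = 1.53e-05). The nuclear kinase genes Clk1 and Clk4 fell by 0.49 and 0.21, and Srpk1 rose by 0.36 (these 3 were named after their values were seen). Dyrk1a was at 20.5, 20.4 and 36.5 CPM with GM-CSF and at 17.6 to 18.7 CPM in control libraries. GM-CSF replicate 3 was the high one; the log2 fold change of 0.53 ± 0.21 was 0.19 without it (edgeR adjusted p = 0.155), and the call was lost in 8 settings.

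Particle proteins outside the 5 families rose in 11 of 18 cases and fell in 2. The largest rises were in Snrnp35 (1.21), a protein of the minor spliceosome, and Nhp2l1 (1.13), the U4 protein to which Prpf31 binds. Of 11 genes listed as Lsm proteins, relatives of the Sm proteins, 4 rose and 2 fell. The rises were led by Lsm11 (0.81), which with Lsm10 belongs to the U7 snRNP of histone mRNA processing, and Lsm5 (0.52), part of the rings on U6 RNA and on decaying mRNA. The falls were in Lsm6 (-0.19), of the same rings as Lsm5, and Lsm10 (-0.44). The list also held Naa38, an acetyltransferase subunit related to Lsm proteins, which did not pass (-0.28). Lsm5 lost its call in 5 settings. Of 13 minor spliceosome genes, 6 rose, Rnpc3 (0.73) among them, and 4 fell.

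Partners of SR proteins and factors at the branch site mostly rose where they passed. Of 27 SR-related genes, 16 rose, led by Tra2b (0.97) and Rnps1 (0.96), and Rsrp1 fell, at -0.85. Of 17 U2AF and branch-site genes, 10 rose and none fell; Dhx15 (0.90), a helicase that takes spliceosomes apart, and Sf1 (0.88), the first protein to read the branch site, were the largest. Of 17 spliceosomal helicases, 9 rose, with Ddx46 at 0.68 after Dhx15, and Dhx16 fell, at -0.50. Of 26 genes of the PRP19 complex and later steps, 12 rose, led by Rbmx2 (1.05) and Wbp11 (0.86), and Cdc40 fell, at -0.23. Of 10 exon junction genes, 4 rose and none fell: Rnps1, Eif4a3 (0.68), Magoh (0.55) and Rbm8a (0.49). Of 43 other splicing regulators, 23 rose and 8 fell, with the largest changes in Syncrip (1.56) and Ncl (1.52).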

How the data were processed

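Poly(A) RNA-seq of sorted mouse marrow monocytes was used (3 GM-CSF and 3 control libraries, grouped by the labels). The authors deposited raw read counts per gene symbol, 1 column per library. Tools listed in the submitters' processing notes, with no roles, are HTSeq 0.6.1p1, STAR 2.5.2a, Trim Galore 0.4.4 and edgeR, and the build is mm10. For annotation and strand the entry is "not given in the sources used here", so reads of overlapping genes on opposite strands may be mixed (22 of the 65 genes have such an overlap). Library sizes hold gene rows alone: ambiguous reads made up 1.44% to 1.53%, reads outside genes 7.82% to 9.72% and reads without a unique place 18% to 19.6%.

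The deposited counts entered edgeR 4.0.16 in R 4.3.3 (TMM factors 0.987 to 1.02, filterByExpr at 10 counts and a total of 15, two-sided quasi-likelihood test, group as the only term) over 11731 genes; 12690 were removed. P-values were adjusted by Benjamini-Hochberg with a threshold of 0.05. SE is the absolute log2 fold change over the square root of F. The procedure was run on simulated data in which far fewer genes changed than were called here. That run cannot check the scaling or false calls under such wide change. Replicates differed beyond sampling noise in every pair (chi-square per degree of freedom 11.7 to 40.0). Exon lengths, shared stretches and overlaps came from GENCODE M21 (GRCm38, the assembly mm10 denotes), which holds 23384 of the 24421 symbols.

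The counts cover all genes of the families, but the values of 1 gene and 1 sequence are not reported here. The genes and lists were chosen with earlier results of these data known. Given in full were, per family, the 3 called genes with the largest absolute log2 fold change whose mean log2 CPM reached 1, and the gene with the highest CPM per kb; those past neither filter nor threshold are named with values, and of each further list the 2 called genes with the largest change. Related pairs, particle groups and further names were chosen after values were seen. Alternatives were 2 other scalings besides upper quartile, 2 other filters, a robust prior, limma-voom (limma 3.58.1), the DESeq2 1.42.0 Wald test, removal of the 10 most abundant genes, a GC correction (loess, span 0.5), a replicate block and leaving out each library.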

Additional observations from a re-analysis of the deposited data

How the results depend on the processing

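Over 17 alternative settings, 33 of the 38 rises and both falls kept their call in every one; those that lost it in at least 1 included Srsf1, Srsf5, Snrpb and Prpf18. Upper quartile scaling gave 5 genes lower (Sf3 2, Prpf 2) and medians of 0.26 over all, 0.59 for Srsf, 0.26 for Hnrnp, 0.062 for Snrp and 0.26 for Sf3; it added Prpf19 (-0.26), Prpf8 (-0.26) and Sf3b5 (-0.23) to the falls. Relative to the main setting, the median shift over all tested genes was -0.117. Leaving out each library in turn gave 35 to 39 genes higher, 2 lower, and medians of 0.34 to 0.42. By family the range was 7 to 9 higher for Srsf, 12 to 13 for Hnrnp, 3 in each case for Snrp, 5 to 6 for Sf3 and 8 to 10 for Prpf, and 84 to 106 higher and 17 to 20 lower for related splicing genes.

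Of the 23 genes past no threshold, 9 were called in some setting and 9 changed sign in some, all close to 0. The changed signs with upper quartile scaling were Hnrnpl (-0.051), Hnrnpul1 (-0.0086), Prpf38b (-0.065), Sf3b1 (-0.016) and Snrpc (-0.084). With the GC correction they were Prpf38b (-0.0093), Sf3b1 (-0.032) and Srsf4 (0.059). With each library left out in turn the sign changed within the ranges of Hnrnpa3 (-0.24 to 0.13), Hnrnpl (-0.044 to 0.25), Hnrnpr (-0.066 to 0.042), Prpf38b (-0.040 to 0.18), Snrpc (-0.053 to 0.13) and Snrpg (-0.19 to 0.0032). The cause was not tested.

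Same-numbered libraries showed little shared deviation (correlations of 0.0645, 0.0102 and 0.00237). The labels do not say whether the numbers pair the samples, and so few libraries cannot settle it. With a replicate block the counts were 38 higher and 2 lower. Depth limits the genes under 10 CPM in every library, among them Hnrnpa1, Hnrnph3, Snrpf and Prpf40b, and Srsf12 and Snrpn could not be tested.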
